A study of Coprinopsis cinerea with 7 samples.

Results

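The interior of chromosome 3 of Coprinopsis cinerea, the ink cap mushroom, was described in windows of 300 bp for enrichment of 5-hydroxymethylcytosine (5hmC) in DNA. All windows of the chromosome that began beyond its first 20 kb and stopped at least 20 kb before its last window ended were taken, 11946 of the 120537 windows of the genome, and no measured value entered that choice. The samples were genomic DNA of oidia, the asexual spores of the fungus, and strain and genotype were not given in the sources used here. In the IP group, DNA was pulled down with a non-commercial antiserum against cytosine-5-methylenesulfonate (CMS), the product that bisulfite forms from 5hmC. The input group was the matching DNA before pull-down, and whether it had also been treated with bisulfite was not given. There were 7 libraries, of which 5 were IP (3 from the first biological replicate and 2 from the second) and 2 were inputs, 1 per biological replicate. The deposited tables each held 4 count columns, tagged 1_1 and B_1, which were read as 2 IP and 2 input columns. No label tied these tags to the biological replicates or said whether technical replicates had been merged, so p-values measure only the spread between these columns.

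TET enzymes are dioxygenases that oxidise 5-methylcytosine to 5hmC and onward to further oxidised bases. They belong to the TET/JBP family, whose JBP members hydroxylate thymine in kinetoplastids. Coprinopsis cinerea is known for an expanded set of genes of this family, and in fungi 5-methylcytosine is found mainly in repeats and transposons. An antibody pull-down reports where modified DNA is more frequent than in the input, not what share of cytosines is modified. The gene models named here carry locus tags without product names, so no function is given for them.

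Across the interior the primary table held 10197566 counts in IP 1_1, 6487939 in IP B_1, 3464318 in input 1_1 and 3492520 in input B_1. The median window held 737 and 460 counts in IP and 271 and 279 in input. A second table of the same windows is called the multi-mapped table here. Its name holds both the words multiple mapped and unique, and does not settle which reads were counted. None of its headers holds the word IP, so its 2 count columns without the word input were taken as IP. It held 2286157 and 1797412 counts in IP and 2672566 and 2574185 in input. No interior window exceeded 1061 counts there, against 76249 in the primary table. The chi-square per degree of freedom between columns of a group, across interior windows, was 10.2 (IP) and 1.84 (input) in the primary table, and 1.27 and 0.931 in the multi-mapped one. The multi-mapped inputs thus differed by less than the sampling noise and count as 1 sample. Multi-mapped calls and p-values are given from fits with both input columns, which overstate n. Total calls of windows, genes, spaces between genes and bins are set beside those from a fit with the mean input as 1 sample. Most other counts of multi-mapped calls, such as those at 2-fold or within a bin, region or space, rest on both input columns only. All intervals and noise limits given here cover counting error only.

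The question was where along the chromosome IP exceeded input. In the primary table, 777 of 11870 tested windows (6.55%, exact 95% interval 6.11% to 7.01%) were higher in IP and 85 (0.716%) were lower by edgeR's quasi-likelihood test at an adjusted p under 0.05. Over all tested windows of the genome these shares were 8.76% and 0.640%. Higher windows of chromosome 3 were by the median 1.57-fold above input, 188 of them were at least 2-fold higher (genome 1.80%) and 87 at least 4-fold (genome 0.632%). Counted in the multi-mapped table, 653 of 11946 windows were higher (genome 7.00%) and 105 lower (genome 0.816%), with 61 at least 2-fold (genome 0.438%) and 1 at least 4-fold (genome 0.00415%). With its inputs as 1 sample that table gave 297 higher (genome 2.75%) and 4 lower windows (genome 0.0548%). Among the interiors of the 13 chromosomes, chromosome 3 ranked 10 by share of higher windows in both tables, ahead of chromosomes 1, 8 and 5. No test between chromosomes was made, since all windows come from the same 4 columns.

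A fit without 1 column leaves a single column in that group and takes its spread from the other group alone. The number of higher windows depended on which columns were fitted. It was 1373 without IP 1_1 and 1125 without IP B_1, but 482 without input 1_1 and 397 without input B_1, and the lower windows numbered 1131, 572, 8 and 25 in the same order. Scaling by library totals in place of TMM factors shifted the median log2 fold change of the interior from -0.02 to -0.16 and gave 537 higher and 730 lower windows, a 42.4% share of higher calls against 90.1%. The authors' deposited table, with its own adjusted p under 0.05, held 330 interior windows higher in IP (genome 3.26%) and 0 lower (genome 0.00166%) in the primary version. The authors' deposited table held 281 higher (genome 3.21%) and 0 lower (genome 0.00%) in the multi-mapped version.

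Higher windows were gathered into few stretches. Of 71 bins of 50 kb that lay wholly in the interior, 21 held no higher window, the median bin held 1.20%, and 9 bins with over 20% held 477 of the 750 higher windows in these bins. The densest bin was chr3:350001-400000, where 74 of 167 windows (44.3%) were higher by the primary counts and 72 (43.1%) by the multi-mapped counts. Together with the bin before it, it formed a stretch from 300001 to 400000 with 9 regions of at least 3 higher windows and 129 higher windows of 333 (38.7%). Another dense stretch, from 800001 to 900000, held 95 of 333 (28.5%) and 14 regions, most of them in the bin chr3:850001-900000, whose share of 39.2% came next after the densest bin. The stretch from 2100001 to 2200000 held 96 of 323 (29.7%) and 13 regions. The last, toward the right end from 3300001 to 3550000, held 167 of 780 (21.4%) and 25 regions. It was not dense throughout. The share was 6.59% in the bin chr3:3300001-3350000 and 5.66% in chr3:3400001-3450000, and 27.5% to 37.4% in its other bins. These 4 stretches were picked out after the values had been seen. They leave out the single bin chr3:450001-500000, where 39 of 167 windows (23.4%) were higher.

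Most dense bins held less gene sequence than the median bin. In the bin chr3:2150001-2200000, where 38.2% of windows were higher, only 13.8% of window midpoints lay in gene models, the lowest share of the 71 bins, whose median was 70.5%. Across the 71 bins Spearman's rho between the share of higher windows and the share in genes was -0.51, as a description, since all bins share the same columns.

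Summed over whole bins, 18 of 71 bins were higher and 38 lower in IP by edgeR's quasi-likelihood test, against 38.5% and 41.8% of all bins of the genome. The multi-mapped counts gave 16 higher (genome 32.6%) and 32 lower bins (genome 36.9%). With the multi-mapped inputs as 1 sample edgeR called 0 bins higher (genome 1.29%) and 0 lower (genome 0.00%), with 6 and 8 at an unadjusted p under 0.05. The highest bin was chr3:1200001-1250000, with 2877 CPM in IP 1_1, 3303 in IP B_1, 1185 in input 1_1 and 1205 in input B_1 (2.58-fold; log2 1.37 ± 0.07 SE, adjusted p = 1.54e-09 by edgeR). Both IP columns stood far above both inputs, although only 5.39% of its windows were higher. By the multi-mapped counts the same bin was 1.06-fold higher (adjusted p = 0.000489 by edgeR, and 0.177 with the inputs as 1 sample). The next bins were chr3:2400001-2450000 (1.66-fold), chr3:450001-500000 (1.65-fold), chr3:2100001-2150000 (1.58-fold) and chr3:350001-400000 (1.44-fold), and in the multi-mapped table they were 1.08-fold to 1.20-fold higher. The lowest were chr3:650001-700000 (0.915), chr3:100001-150000 (0.921) and chr3:3100001-3150000 (0.922 of input), with 0 higher windows each in the primary table. The median lower bin was at 0.949 of input, and DESeq2 size factors in place of TMM gave 20 higher and 18 lower bins, so the number of lower bins rests on the scaling.

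**Figure D1:**
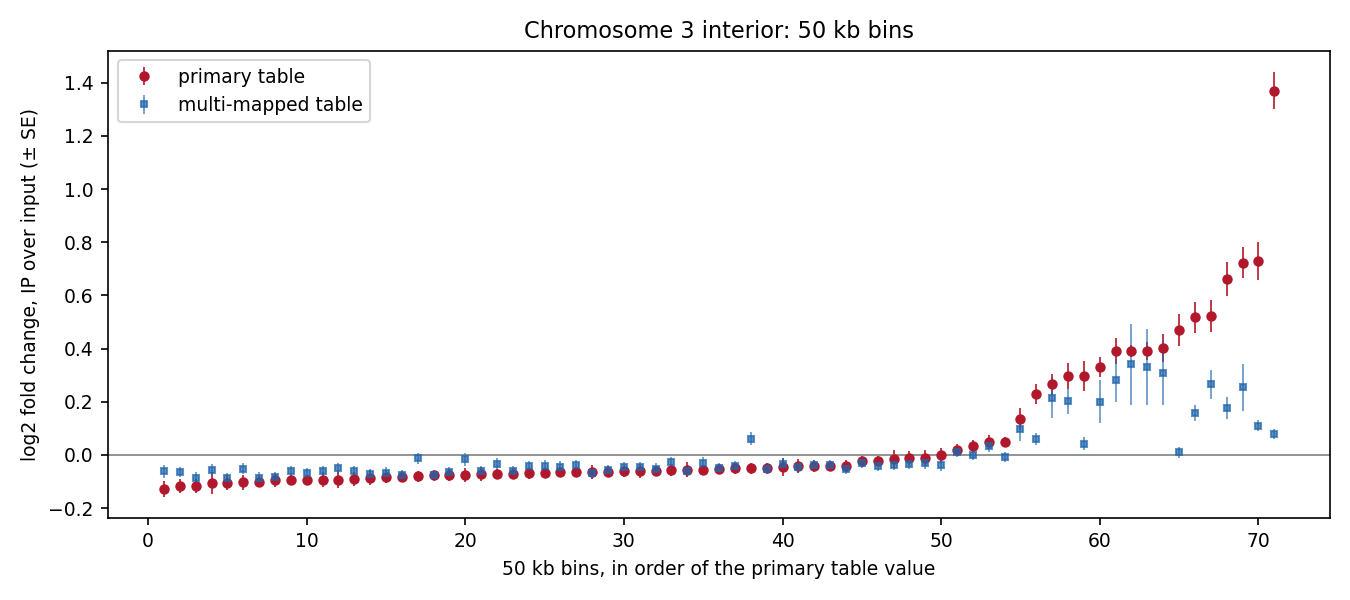
Log2 fold change of IP over input (vertical axis) for the 71 bins of 50 kb, in order of the primary table value (horizontal axis). Values are shown for the primary (red) and multi-mapped (blue) counts. Bars show a standard error derived from the edgeR test statistic of fits with both input columns. Most bins sit slightly below 0, and the highest primary value of 1.37 falls to 0.08 in the multi-mapped table.

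Long stretches held no window called higher in the main fit of the primary table. The longest ran from 1438501 to 1670100 over 231600 bp, with 80.8% of window midpoints in genes, against 68.2% in the whole interior. Its summed signal was 5740 and 5686 CPM in IP and 5845 and 5851 in input, a ratio of 0.977, and 4 of its 772 windows were lower. The next longest were 208200 bp from 1873501 (ratio 0.981) and 205800 bp from 3002101 (ratio 0.961). By the multi-mapped counts with both inputs, 2 windows of the stretch from 3002101 were called higher, and 0 of the stretches from 1438501 and 1873501. In all, 17 such stretches longer than 50 kb made up 53.7% of the interior.

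Where at least 3 higher windows lay together they were joined, which gave 87 regions. Their length was 1800 bp by the median, and they covered 202800 bp (5.66% of the interior). They took in 631 of the 777 higher windows, and without input B_1 there were 46 regions. The regions were by the median 1.61-fold higher, and 28 were at least 2-fold higher. As they were built from called windows, their summed values are a description without a test of their own. The 20 regions that touched no gene model were by the median 1.53-fold higher and the 67 others 1.67-fold.

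The highest region by summed counts, chr3:1232701-1235100, began at the edge of CC1G_14146 and reached into the space before CC1G_09317. Summed over its 8 windows it held 1797 CPM (counts scaled by TMM to a common library size) in IP 1_1, 2242 in IP B_1, 65.3 in input 1_1 and 58.5 in input B_1, 2020 ± 315 against 61.9 ± 4.80 (SD, n = 2 per group). Nearly all of that signal sat in 4 neighbouring windows. Its central window, 1233601 to 1233900, held 76249 and 58684 counts in IP and 510 and 411 in input (69.0-fold, log2 6.11 ± 0.41 SE, adjusted p = 5.42e-07 by edgeR's quasi-likelihood test). The windows on either side were 57.6-fold and 37.6-fold higher, whereas the next window on the left, 1233001 to 1233300, was 29.9-fold higher with only 158 and 135 input counts. A second rise of 5.87-fold followed at 1234501 to 1234800, after a dip to 2.90-fold. Beyond the region the fold returned to 1.25 on the right and 1.11 on the left within 1 window.

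The same central window of the multi-mapped table held 841 and 855 counts in IP and 557 and 457 in input, 2.26-fold. The order of the windows differed there, and the highest was 1233001 to 1233300 (2.79-fold).

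The region chr3:2501401-2503200 lay in the space between CC1G_12642 and CC1G_12644 and touched no gene model. It held 445 and 747 CPM in IP and 26.1 and 27.7 in input, 22.2-fold more. Its window 2501701 to 2502000 had the highest fold of any interior window, 83.8-fold (17877 and 18690 counts in IP against 111 and 102; adjusted p = 1.45e-07 by edgeR's quasi-likelihood test). It was also the only interior window above 4-fold in the multi-mapped table (289 and 292 counts against 93 and 87, 4.28-fold). From that window the fold fell to 9.51 at 2502301 and to 5.10 at 2502901, while it was 1.10 in the window before the region.

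**Figure D2:**
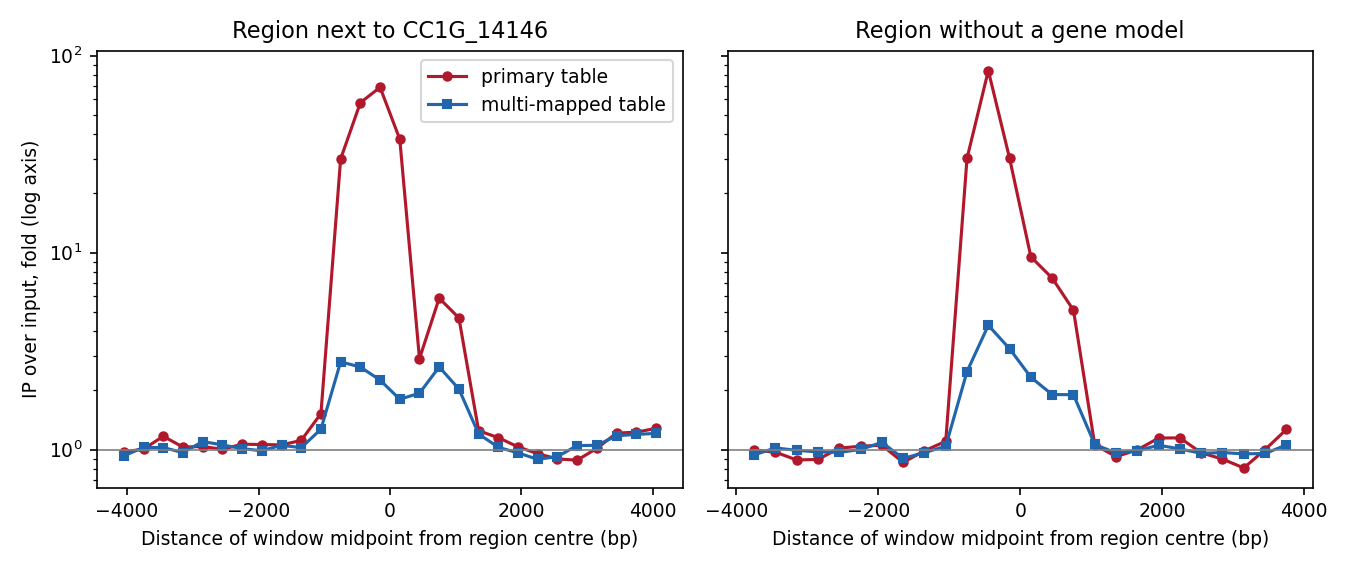
Fold of IP over input per 300 bp window (log axis) against the distance of the window midpoint from the region centre, for the region next to CC1G_14146 (left) and the region without a gene model (right), in the primary (red) and multi-mapped (blue) tables. The primary fold reaches 69.0 and 83.8 and the multi-mapped fold 2.79 and 4.28, and both fall to about 1 outside the regions.

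Other strong regions covered gene models. At chr3:2121901-2124300, all 8 windows lay in CC1G_07408 and CC1G_07409, and the region held 561 and 847 CPM in IP and 61.7 and 60.6 in input (11.5-fold, and 1.94-fold in the multi-mapped table). The region before it, chr3:2119501-2121000, covered CC1G_07406 and CC1G_07407 and was 3.97-fold higher (117 and 151 CPM against 33.6 and 33.8). At chr3:3335101-3337200 the end of CC1G_02394 and the space up to CC1G_02395 held 390 and 611 CPM in IP against 52.9 and 53.2 (9.44-fold). In each of these regions the IP columns lay apart from the inputs, and IP B_1 exceeded IP 1_1.

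The region chr3:2422801-2428200 was both long and strong. All 18 of its windows were higher, over CC1G_06882 and the space after it, with 802 and 1242 CPM in IP and 163 and 160 in input (6.33-fold). Its highest window, 2427601 to 2427900, was 37.0-fold higher (23092 and 24837 counts against 323 and 312) and lay outside the gene. The shorter regions at chr3:2280301-2281200 (CC1G_06821, 5.29-fold), chr3:2216101-2217000 (CC1G_11538, 5.24-fold), chr3:3540601-3541500 (no gene model, 3.73-fold) and chr3:3384901-3385800 (CC1G_14290, 3.49-fold) spanned 900 bp each. These 4 were 2.18-fold, 1.42-fold, 1.76-fold and 1.57-fold higher by the multi-mapped counts.

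The longest region, chr3:604501-613500, was higher in all 30 of its windows and took in 5 gene models, CC1G_04611 to CC1G_04613, CC1G_15846 and CC1G_04615. It held 935 and 1176 CPM in IP and 345 and 333 in input, 1056 ± 170.4 against 338.9 ± 9.01 (SD, n = 2 per group), a 3.12-fold difference. By the multi-mapped counts 29 of the 30 windows were higher, at 1.65-fold for the sum. Next came chr3:354001-362700 over CC1G_06043 to CC1G_06045 and CC1G_14081, with 28 of 29 windows higher (2.10-fold, 543 and 624 CPM against 283 and 273). In the same dense stretch lay chr3:308401-315000 (CC1G_06023 to CC1G_06027, 1.79-fold), chr3:386701-393000 (CC1G_06051, CC1G_06052 and CC1G_14085, 1.54-fold) and chr3:394501-400200 (CC1G_06053 to CC1G_06055, 1.83-fold). At the left end chr3:22201-27300, which reached CC1G_09600 with its last windows, was 3.88-fold higher (437 and 606 CPM against 141 and 127). At the right end chr3:3534301-3539400 touched the tRNA gene CC1G_20070 and was 1.45-fold higher (239 and 243 CPM against 173 and 159).

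Of the 10 longest regions, 2 touched no gene model and differed in their input. At chr3:3357001-3363600, up to 7475 bp from the nearest gene, 21 of 22 windows were higher in the primary table (275 and 335 CPM against 170 and 163, 1.83-fold) and 12 in the multi-mapped table (1.41-fold). At chr3:2194201-2199600 the counts were 15 of 18 and 4, at 1.48-fold and 1.34-fold. Input per window in these regions was 1.04 times the interior's median in the primary table for both, but 2.09 and 2.83 times in the multi-mapped table. The same held for the 20 regions without a gene model, whose median input was 1.20 times that of the interior by primary and 2.17 times by multi-mapped counts (0.885 to 4.30 times), against 1.24 and 1.36 times for regions that touched genes. The part of input level in the IP difference was not tested.

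**Figure D3:**
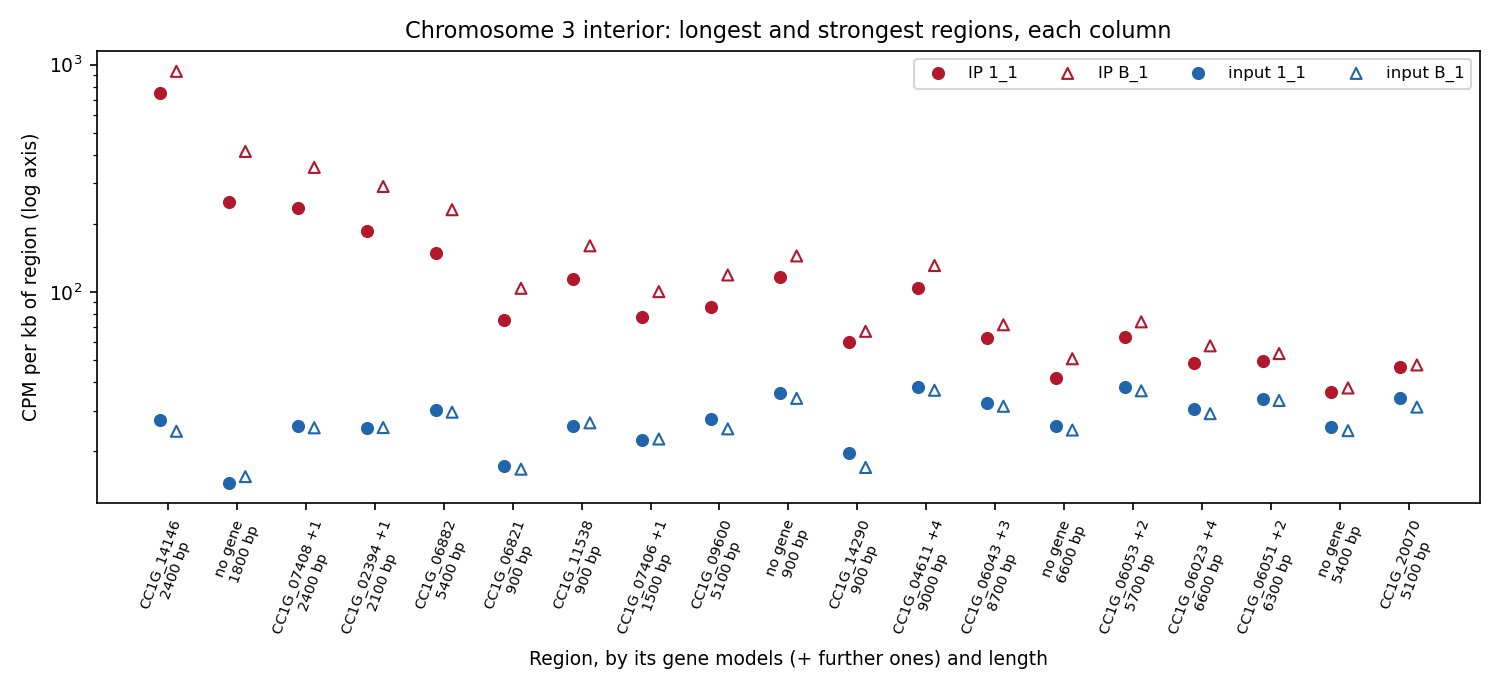
CPM per kb of region in the primary table (log axis) for each IP column (red) and input column (blue) of the longest and strongest regions, ordered by fold and named by their gene models and length. Both IP columns lie above both inputs in each region, and the fold runs from 32.6 on the left to 1.45 on the right.

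All 87 regions were higher in both IP columns than in both inputs, by their choice in the primary table and as a further description in the multi-mapped table. The median fold was 1.61 by primary and 1.35 by multi-mapped counts, and 4 regions were at least 2-fold higher in the latter, against 28. Of the 87 regions, 78 held at least 1 window called higher by the multi-mapped table, and 57 with its inputs as 1 sample. As the tables carry the same tags and may hold the same libraries, the second is another count of the same material and not a replicate.

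**Figure D4:**
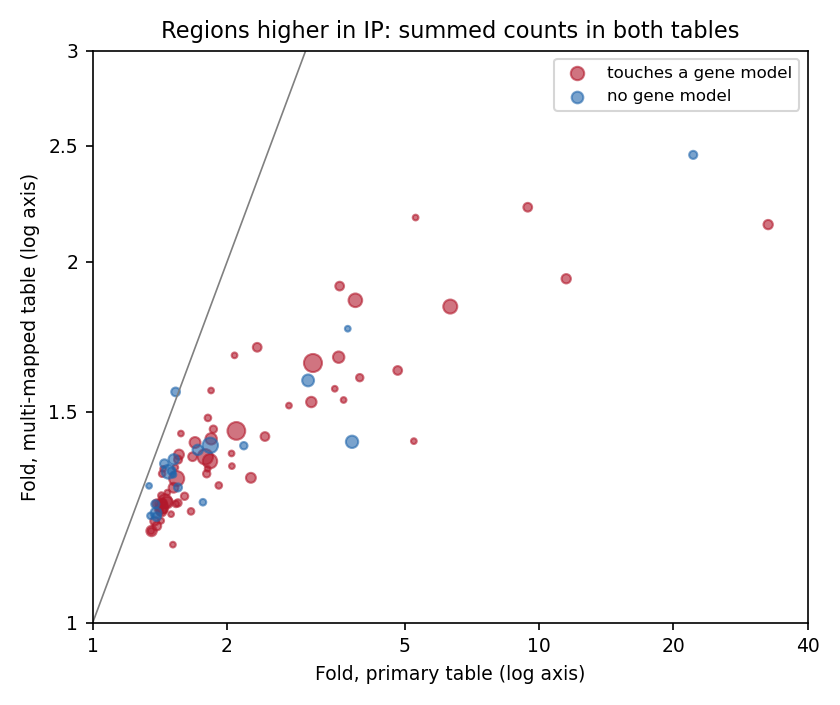
Fold of summed counts in the primary table (horizontal, 1 to 40) against the multi-mapped table (vertical, 1 to 3), both on log axes, for the 87 regions, with circle area growing with length and blue for regions that touch no gene model. The grey line marks equal folds, and values run from 1.34 to 32.6 on the horizontal and from 1.16 to 2.46 on the vertical axis.

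The IP columns differed most where enrichment was strongest. IP B_1 exceeded IP 1_1 in 87 of the 87 windows at least 4-fold higher, by the median 1.44-fold, in 77.2% of the higher windows under 2-fold, and in 47.5% of windows without a call. Of the 87 regions 79 were higher in B_1. The inputs had no such order in the windows of at least 4-fold, where B_1 exceeded 1_1 in 41.4%.

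The next question was how higher windows lay relative to genes. Of the 777 higher windows, 456 (58.7%) lay outside gene models, where 31.8% of tested windows lay. Outside genes 12.1% of tested windows were higher (exact 95% interval 11.1% to 13.2%) and inside genes 3.97% (3.55% to 4.41%). In the interiors of the other chromosomes these shares were 12.8% and 6.20%. The multi-mapped table gave 10.3% and 3.22% for chromosome 3, and 4.42% and 1.58% with its inputs as 1 sample. Neighbouring windows are not independent, so these intervals are too narrow.

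In the primary table the share grew with each distance class up to 8000 bp. It was 6.09% up to 300 bp from a gene, 10.7% at 301 to 1000 bp, 19.4% at 1001 to 2000 bp, 34.9% at 2001 to 4000 bp and 46.4% at 4001 to 8000 bp (70 of 151 windows). Beyond 8000 bp 7 of 22 windows were higher (31.8%), with an interval of 13.9% to 54.9%. By the multi-mapped counts the share rose to 26.2% at 2001 to 4000 bp and was 19.3% at 4001 to 8000 bp. The median summed input of these far windows, at 4001 to 8000 bp, was 557 primary and 979 multi-mapped counts, while inside genes it was 575 and 414.

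**Figure D5:**
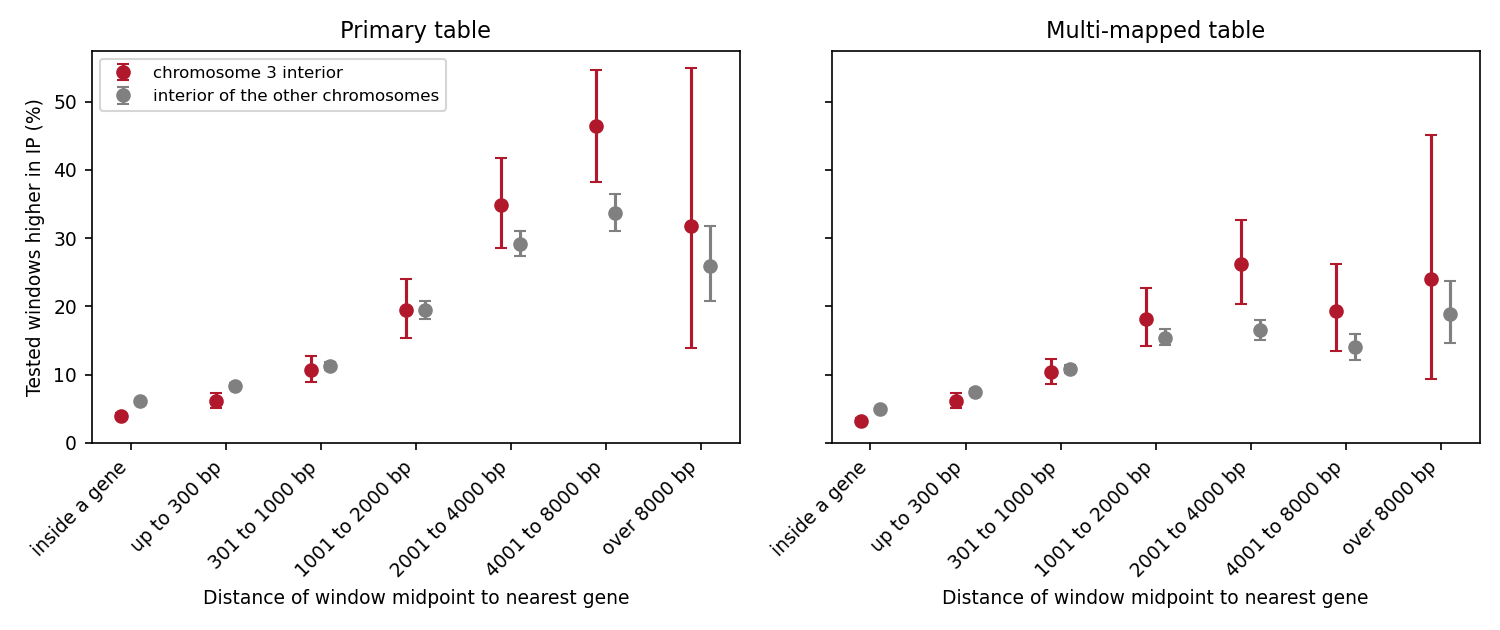
Share of tested windows higher in IP by distance of the window midpoint to the nearest gene, for the interior of chromosome 3 (red) and of the other chromosomes (grey), with exact 95% binomial intervals, in the primary (left) and multi-mapped (right) tables. For chromosome 3 the share climbs from 3.97% inside genes to 46.4% at 4001 to 8000 bp in the primary table and peaks at 26.2% at 2001 to 4000 bp in the multi-mapped table.

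Taken as whole units, 86 of 1190 tested spaces between neighbouring genes were higher in IP and 8 lower by edgeR's quasi-likelihood test, against 10.5% and 0.402% of all such spaces of the genome. Library totals in place of TMM factors gave 59 higher and 524 lower. Of the higher spaces 23 were at least 2-fold higher (genome 2.07%). By the multi-mapped counts 75 of 1192 spaces were higher (genome 8.46%) and 3 lower (genome 0.426%), with 4 at least 2-fold higher (genome 0.332%). With the multi-mapped inputs as 1 sample edgeR called 40 higher (genome 4.07%) and 0 lower (genome 0.00%), with 29 lower at an unadjusted p under 0.05. Long spaces were called higher more often, with 40 of 885 up to 1000 bp (4.52%), 21 of 208 at 1001 to 2000 bp (10.1%), 10 of 68 at 2001 to 4000 bp (14.7%), 7 of 21 at 4001 to 8000 bp (33.3%) and 8 of 8 beyond. In the same order the median log2 fold change was -0.021, -0.025, -0.025, 0.023 and 0.539. By multi-mapped counts with both inputs 39, 22, 10, 4 and 0 spaces were higher. Longer spaces sum more windows, and the part of this in the calls was not tested. CPM of spaces were scaled to the counts in spaces alone, so they cannot be compared with CPM of regions or bins. The space between CC1G_14146 and CC1G_09317 holds most of the region with the highest fold of summed counts. It led with 5546 and 6962 CPM in IP against 187 and 166 in input (35.4-fold, log2 5.15 ± 0.13 SE, adjusted p = 1.33e-09 by edgeR). It was followed by the spaces between CC1G_06882 and CC1G_06883 (11.1-fold), CC1G_12642 and CC1G_12644 (8.66-fold), CC1G_07406 and CC1G_07407 (6.15-fold), CC1G_09283 and CC1G_09284 (5.67-fold), CC1G_02394 and CC1G_02395 (5.49-fold), CC1G_04615 and CC1G_04616 (4.39-fold) and CC1G_04672 and CC1G_04673 (4.12-fold). All 8 passed the same test on the multi-mapped counts too, at 1.39-fold to 2.23-fold, also with the inputs as 1 sample.

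The 8 longest spaces, each over 8000 bp, were treated differently by the tables. In the primary table they were between 1.26-fold (CC1G_07424 to CC1G_13040) and 3.08-fold higher (CC1G_11153 to CC1G_04579). The edgeR adjusted p of these spaces lay between 5.93e-07 and 0.0124. By the multi-mapped counts their folds of 1.26 to 1.36 did not pass the same test (edgeR adjusted p of 0.115 to 0.350), though each held 7 to 21 windows called there one by one. Their median multi-mapped input was 1.52 to 3.41 times that of the interior. The primary input was 0.0345 to 1.17 times, lowest between CC1G_07424 and CC1G_13040, where 9 of 70 windows held too few counts to be tested.

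Read gene by gene, 103 of 1378 tested genes of the interior (7.47%) were higher in IP and 7 lower by edgeR's quasi-likelihood test, against 11.2% and 0.544% of all genes. Of the 103 genes, 17 were at least 2-fold higher (genome 1.47%) and 85 were touched by a region of higher windows. By the multi-mapped counts 102 genes were higher (genome 11.1%) and 8 lower (genome 0.611%), with 2 at least 2-fold higher (genome 0.234%). With the multi-mapped inputs as 1 sample edgeR called 71 higher (genome 7.61%) and 0 lower (genome 0.00755%), with 17 lower at an unadjusted p under 0.05. Higher genes numbered 163 and lower genes 121 when IP 1_1 was left out. Leaving out IP B_1 gave 27 lower genes, leaving out input 1_1 gave 3, and library totals gave 90 higher and 115 lower.

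CPM of genes were scaled to the counts in genes alone, unlike those of regions, bins and spaces. The highest gene was CC1G_07409, with 620 and 949 CPM in IP and 88.9 and 88.8 in input (8.83-fold, log2 3.14 ± 0.17 SE, adjusted p = 3.10e-06 by edgeR's quasi-likelihood test). Its neighbour CC1G_07408 was 4.83-fold higher (312 and 427 CPM against 77.3 and 75.6). The neighbours CC1G_04611 and CC1G_04612, both inside the longest region, were 8.37-fold (299 and 412 CPM against 43.9 and 40.9) and 7.57-fold higher. They were also the 2 genes above 2-fold in the multi-mapped table, at 2.22-fold and 2.45-fold, and CC1G_04615, at the other end of that region, was 3.23-fold higher.

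CC1G_02394 was 6.20-fold higher (512 and 811 CPM against 106 and 107). CC1G_09600, CC1G_04673, CC1G_06024, CC1G_06046, CC1G_11538 and CC1G_04464 followed at 3.34-fold, 2.87-fold, 2.84-fold, 2.81-fold, 2.71-fold and 2.60-fold. For these 12 genes no alternative fit of the primary table ended the call, and the multi-mapped folds were 1.16 to 2.45. CC1G_11538 had the lowest of these, 1.16-fold (edgeR adjusted p = 0.00690, and 0.0611 with the inputs as 1 sample), and in the primary table its higher windows lay in the last 3 of its 7 windows, at 9.59-fold for the highest.

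Genes for transfer RNA, which carry amino acids to the ribosome, were the only functional list that the gene table could define. Of 22 on the chromosome, 8 held an interior window midpoint, each in 1 window. Of these 8, 2 were higher by edgeR's quasi-likelihood test, where 7.47% of the interior's genes and 11.2% of all genes were, and from so few genes no difference in share is read. CC1G_20061 held 10.2 and 12.8 CPM in IP and 4.41 and 4.71 in input (2.51-fold, adjusted p = 0.000346 by edgeR). CC1G_20057 held 10.6 and 11.9 CPM against 7.62 and 7.26 (1.51-fold, adjusted p = 0.0131 by edgeR), and its call was lost without input 1_1 (adjusted p = 0.0525) or without input B_1 (0.112). The median log2 fold change of the 8 was 0.13, against -0.01 for all tested genes of the interior. The window is longer than a tRNA gene, so these values include its flanks.

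Windows lower in IP were few and lay mostly in genes. Of the 85, 68 (80.0%) lay inside gene models, where 68.2% of tested windows lay, and their median was 0.713 of input. Of the lower windows by multi-mapped counts with both input columns, 91 of 105 (86.7%) lay inside genes. None reached 2-fold lower, with 0 such windows at an unadjusted p under 0.05 in edgeR's quasi-likelihood test and 2 in DESeq2. DESeq2 called 28 lower windows in all. Of the 85 lower windows by edgeR, 26 formed 13 pairs of neighbouring windows, each touching a gene model, and 59 lay outside such pairs.

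The lowest pair, chr3:63601-64200 in CC1G_09613, held 10.7 and 11.1 CPM in IP and 16.8 and 17.1 in input, a ratio of 0.644. It was 0.915 in the multi-mapped table, where neither window was called. The pairs at chr3:1764001-1764600 in CC1G_01990 (0.654), chr3:745201-745800 in CC1G_04661 (0.676) and chr3:2787001-2787600 at CC1G_03296 and CC1G_03297 (0.680) were below input in both tables, with 2 called windows each in the multi-mapped one (inputs as 2 columns). The pair at chr3:3313201-3313800 in CC1G_02386 (0.703) was at 0.886 there without a call.

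The lowest of the called genes were CC1G_09346 (0.764 of input; 29.1 and 25.7 CPM against 34.1 and 37.8; adjusted p = 0.0244 by edgeR's quasi-likelihood test), CC1G_03296 (0.774), CC1G_04617 (0.798), CC1G_14296 (0.816) and CC1G_02399 (0.828). Of these, CC1G_03296 and CC1G_02399 were not called in the multi-mapped table (edgeR adjusted p of 0.145 and 0.195), and none of the 5 was with its inputs as 1 sample (0.118 to 0.504). The call of CC1G_09346 ended without input B_1 (adjusted p = 0.238), that of CC1G_04617 without either input (0.117 and 0.160), that of CC1G_14296 without input 1_1 (0.0636) and that of CC1G_02399 without input 1_1 (0.215) or IP B_1 (0.0525). Of the 8 lower spaces between genes (genome 0.402%), 3 lay inside the dense stretch from 300001 to 400000, between CC1G_06045 and CC1G_06049. That stretch was picked after seeing the values, and its tested spaces were not counted, so no gathering of lower spaces is read.

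A few windows could not be read in the primary table. Of the interior windows 76 held under 10 counts, and 17 of them none in any column. These 17 held a median of 888 summed input counts in the multi-mapped table, where the median over the interior was 410. Of the 76, 6 (7.89%) were higher in the multi-mapped table, against 5.47% of the interior and 7.00% of the genome.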

How the data were processed

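Both tables that the authors deposited hold whole-number counts of reads in windows of 300 bp. Per the file headers they also hold the authors' log2 fold change and the authors' adjusted p-value. The header of the log2 fold change names no direction, and it was read as input over IP. Bismark 0.6.4, Bowtie 0.12.7 and edgeR are named, without roles, per the submitters' processing notes. Genome build, read extension and duplicate removal: not given in the sources used here. A further 8 per-sample RPKM columns were not used.

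Windows with at least 10 counts were tested over the whole table with edgeR 4.0.16 (R 4.3.3): TMM scaling, quasi-likelihood test of 2 IP against 2 input columns, Benjamini-Hochberg adjusted p under 0.05. Genes, spaces between genes and 50 kb bins were sums of windows by midpoint, fitted likewise. Each kind had its own library totals and TMM factors, so CPM compare only within a kind, and regions use those of windows. DESeq2 1.42.0 was an alternative. A fold of a window, gene, space or bin is the fitted one, and a fold of a region is the ratio of mean CPM. The SE of an edgeR log2 fold change is its absolute value divided by the square root of its F statistic. Called windows were merged across gaps of 1 window. Scripts were tested on simulated counts.

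Genes were placed by the RefSeq annotation of assembly CC3. As no build is named for the windows, the match was checked on chromosome 3. The correlation of input with gene cover peaked at 0 shift (r = 0.130, at most 0.0476 in size beyond 10 windows). The gene table gives no strand or product names, so spaces were not sorted by gene orientation and product lists were not analysed here. No genome sequence was used.

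Named items followed a rule: the 10 longest and 10 strongest regions, 10 highest windows, 5 lowest regions, 12 highest and 5 lowest genes, called tRNA genes, 8 highest spaces, 5 highest and 3 lowest bins, and 3 longest stretches without higher windows. Members, lists and rules were chosen with earlier results of these data known.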

Additional observations from a re-analysis of the deposited data

How the results depend on the processing

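Strict rules reduced the counts. At an adjusted p under 0.01 there were 489 higher and 9 lower windows, 54 regions and 0 lower genes. At 2-fold there were 188 higher and 0 lower windows, 26 regions, 17 higher and 0 lower genes, 23 spaces between genes and 1 bin. Merging across 5 windows gave 51 regions, asking for 2 called windows gave 141, and bins of 20 kb gave 38 higher bins. Library totals gave 730 lower windows, 115 lower genes and, by multi-mapped counts, 611 lower windows. DESeq2 gave 28 lower windows and, by multi-mapped counts, 392 higher and 0 lower windows. Counting the multi-mapped inputs as 1 sample left 297 higher and 4 lower windows, 71 higher and 0 lower genes, 40 higher and 0 lower spaces and 0 higher and 0 lower bins by multi-mapped counts. For genes, spaces and bins this was added after seeing the data.

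Outside genes the share of higher windows was 8.26% by library totals, 10.4% by DESeq2, 7.28% at an adjusted p under 0.01, 3.12% at 2-fold, 10.3% by multi-mapped counts and 15.3% when any overlap counted as inside. Inside genes it was 2.78%, 2.64%, 0.865% and 3.22% by library totals, at 0.01, at 2-fold and by multi-mapped counts. In each of these settings the share outside exceeded that inside. The chromosome's share of all counts was 0.00768 percentage points higher in IP by primary counts and -0.245 points by multi-mapped counts (neither passed an exact permutation test, which 2 against 2 columns cannot pass). The causes were not tested.

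Leaving out 1 column gave 397 to 1373 higher and 8 to 1131 lower windows, 46 to 119 regions, 94 to 163 higher and 3 to 121 lower genes, 68 to 100 higher spaces and 16 to 19 higher bins. It gave shares of 5.97% to 19.4% outside and 2.13% to 7.97% inside genes, and 304 to 1045 higher and 23 to 93 lower windows by multi-mapped counts.

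The tags 1_1 and B_1 occur in both groups, but only 2 pairs exist and no label ties them, so the columns share only a tag. The IP and input differences between tags correlated with r = 0.208 over the interior's windows in the primary table. A replicate block by tag gave 1072 higher and 460 lower windows, 84 regions, 135 higher and 56 lower genes, 104 higher spaces, 18 higher bins, and shares of 16.2% outside and 5.70% inside genes.

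Among the windows, genes, spaces and bins chosen by the naming rule none changed direction in a call. Their calls lost were 1 without IP B_1, 4 without input 1_1, 3 without input B_1, 2 by multi-mapped counts with both inputs and, by DESeq2, that of the bin at 3100001 (adjusted p = 0.0646). Fits without 1 IP column took their spread from the inputs alone, so they are a weak check of strong calls. Fits with the multi-mapped inputs as 1 sample are not in that tally, and further named calls were lost there. The 8 longest spaces, named by length, lost their calls by multi-mapped counts. Summed folds of named regions moved beyond the spread between columns in 21 cases by multi-mapped counts and in 5 by library totals, with no change of direction. With 2 columns per group, and tags of unknown origin, no spread between cultures can be given.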
